A study of Mus musculus with 17 samples.

Results

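The day 9 and day 14 podocyte lists hold 38643 of the 107761 WT1 peaks of the series, 31949 at day 9 and 6694 at day 14 after adriamycin. They come from 2 of the 5 deposited peak lists, chosen by their group names, and stand for 4 of the 17 libraries, 2 at each day. WT1 was measured by chromatin immunoprecipitation and sequencing (ChIP-seq), in which a peak is an interval where immunoprecipitated fragments pile up above background. Both groups are podocytes purified from mTmG reporter mice, labelled wildtype and aged 7 to 8 weeks, and both received adriamycin (ADR, doxorubicin). In this strain a Cre recombinase switches a membrane reporter in podocytes, so that the cells of both days carry the reporter and the recombinase. The groups differ in the time after injection, 9 or 14 days. A further 3 lists served as readouts that the matching of day 14 with day 9 did not use. They are podocytes of the same strain after phosphate-buffered saline (PBS, 3 libraries) and whole glomeruli of BALB/cJ mice after PBS (4 libraries) or ADR (4 libraries), also of 7 to 8 weeks. The labels give no day for these 3 groups. Each ADR day has 2 labelled libraries, although the protocol counts 3 experiments per condition in this strain. The same antibody (Santa Cruz sc-192) served for all WT1 libraries.

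WT1 is a DNA-binding regulator with zinc fingers, without which podocytes, the filtering epithelium of the glomerulus, neither form nor keep their structure. It binds GC-rich DNA at promoters and at distal sites, often at several sites around the same gene. Adriamycin injures podocytes and is widely used in mice to model proteinuric kidney disease. Peak lists hold no expression values, so the purity of the podocytes could not be checked against marker genes.

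Each day is represented by 1 list made from 2 libraries. No difference between the days therefore has a replicate check, and no test between them was made. Intervals in parentheses are 95% Wilson intervals over peaks, which cover counting error only. Strength is the authors' fold enrichment at the summit, the base with the highest pileup, and was ranked within each list. From the caller's fold and p-value, a local background pileup of 2.022 was inferred at day 9 and of 2.062 at day 14, on whatever scale the caller had set. Library read totals did not enter. The smallest −log10 q in the lists was 1.52 at day 9 and 2.25 at day 14. How far read depth or the efficiency of immunoprecipitation moved with the shorter day 14 list was not tested.

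The first question was which day 9 sites also had a peak at day 14. Peaks were matched where they overlapped by at least 1 bp, and a day 9 peak with such a match is called kept below. Of the 31949 day 9 peaks, 6565 were kept (20.5%, 20.1 to 21.0) and 25384 were not. In the other direction 6675 of the 6694 day 14 peaks (99.7%) overlapped a day 9 peak. The match was nearly always to 1 partner. One-to-one pairs numbered 6454, and 109 day 9 peaks held more than 1 day 14 peak, 107 of them 2 peaks and 2 of them 3.

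Keeping rose steeply with day 9 strength. All 100 of the 100 strongest day 9 peaks were kept. In the strongest decile of the list, at 21.3-fold enrichment or more, 92.1% were kept (91.2 to 93.0), and in the decile below it 58.1% (56.4 to 59.8). The third and the fourth decile kept 30.0% and 14.6%. The share passed 50% between 14.7-fold and 15.9-fold enrichment. In the weaker 50% of the list only 165 peaks were kept. Trimming the day 9 list to the 6694 peaks with the smallest caller p-values gave equal lengths, and 77.4% of these had a day 14 peak.

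**Figure D1:**
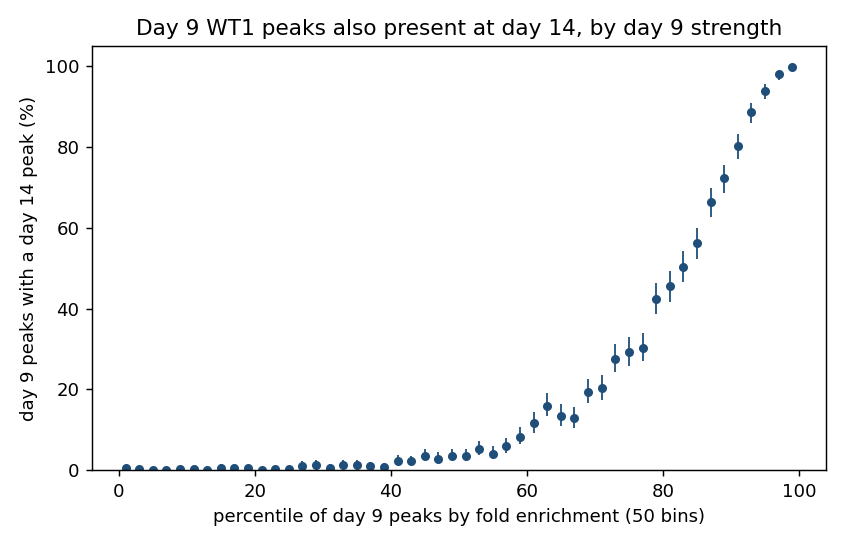
Share of day 9 peaks with an overlapping day 14 peak (vertical axis, %) in 50 equal bins of day 9 fold enrichment (horizontal axis, percentile, strongest at the right); bars are 95% Wilson intervals. The share stays under 10% up to the 60th percentile and reaches 99.8% in the strongest bin.

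Some strong day 9 sites had no day 14 peak. In the strongest decile these were 251 peaks. The strongest was at chr7:117260132-117260913 (mm9), which ranked 486th of all day 9 peaks at 50.2-fold and lay 55.6 kb from the nearest day 14 summit. It had no peak in PBS podocytes or PBS glomeruli and had one in ADR glomeruli. The next was at chr19:55232997-55233807, at 45.5-fold with the nearest day 14 summit 60.2 kb away. The peak at chr2:62250802-62251559 reached 43.0-fold in a window of 13 day 9 summits and lay 5.71 kb from a day 14 summit. The peaks at chr3:126401396-126402304 (41.8-fold) and chr4:105011385-105012052 (40.2-fold) followed. The last 4 of these 5 had a peak in all 3 of the other lists, as had 10518 of all 31949 day 9 peaks. Of the 251 peaks, 86.5% overlapped a PBS podocyte peak, 88.8% a PBS glomerular peak and 43.4% an ADR glomerular peak. Across all day 9 peaks that were not kept, the nearest day 14 summit lay at a median of 45.3 kb (quartiles 12.2 and 142 kb), and 22.1% had one within 10 kb.

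The second question was how matched sites compared in rank. Both days were ranked over the same 6454 one-to-one pairs, with 100 as the strongest percentile. The order of sites was largely shared, with Spearman's rho of 0.812 across pairs. Pairs are sites of the same 2 lists, not independent replicates, and the value is a description. The median absolute shift was 9.06 percentile points, 84.4% of pairs lay within 25 points (83.5 to 85.3), and 86 pairs moved by more than 50. The shared order was closest at the top. Of the 646 pairs in the top 10% at day 9, 491 (76.0%) were in the top 10% at day 14. Of the 645 in the bottom 10% at day 9, 321 (49.8%) were in the bottom 10% at day 14. Within quintiles of day 9 strength rho was 0.730 in the strongest quintile and 0.216 to 0.310 in the others.

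The strongest pair and the next kept their places, and the following ones moved down. A site on chromosome 16 was first on both days, at chr16:50785501-50786948 with 137-fold enrichment at day 9 and chr16:50786098-50786779 with 59.2-fold at day 14. A site on chromosome 10 was second on both, with 122-fold at day 9 (chr10:5165677-5166910) and 50.7-fold at day 14. The third at day 9, chr15:95039517-95040257, was 12th at day 14, and chr2:52794722-52795589 went from 5th to 10th. The site at chr16:26049180-26050319 went from 4th to 67th. Of the 100 strongest pairs at day 9, 72 were among the 100 strongest at day 14.

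**Figure D2:**
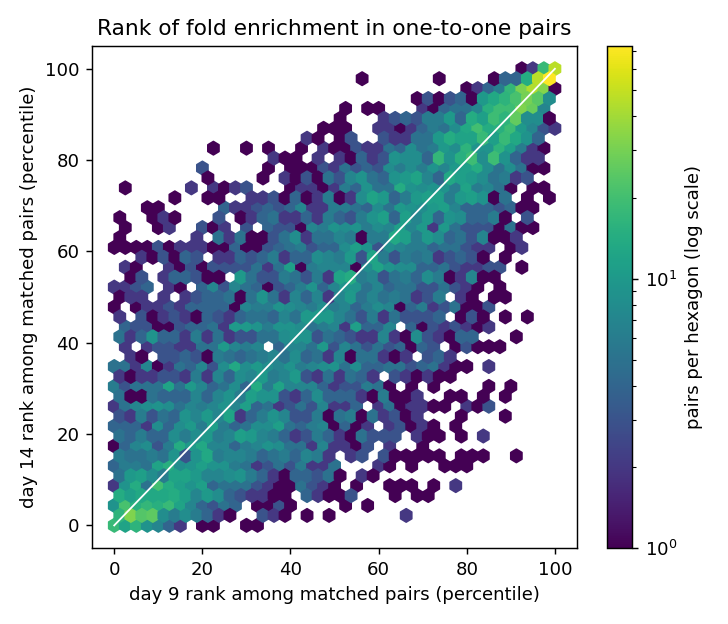
Percentile rank of fold enrichment among the 6454 one-to-one pairs at day 9 (horizontal axis) and day 14 (vertical axis); colour gives pairs per hexagon on a log scale and the white line marks equal rank. Pairs gather along the line, most closely at the strong end, and a few strong day 9 sites lie far below it.

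A few sites changed place strongly. The largest fall was at chr7:85870008-85870658, 603rd of 6454 pairs at day 9 with 46.4-fold enrichment and 5454th at day 14 with 4.31-fold, a shift of -75.3 percentile points. It had a peak in PBS podocytes and none in either glomerular list. Falls of -68.6 and -67.7 points followed at chr11:116959320-116960487 and chr10:69763821-69764733. The sites chr7:16946597-16947382 and chr10:58703737-58704453 came next. All 5 of these sites had a PBS podocyte peak, as had 96.2% of all one-to-one pairs. Their day 14 peaks had −log10 q values of 3.47 to 7.23.

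The largest rise was at chr1:31850783-31851147, 6352nd at day 9 with 6.20-fold enrichment and 1674th at day 14 with 8.77-fold, a shift of 72.2 points. The site at chr18:29698688-29699039 rose by 64.8 points. The site at chr11:28539047-28539474 went up from 5970th (8.68-fold) to 1866th (8.30-fold), and chr17:81787475-81787756 from 6450th (3.75-fold) to 2516th (7.25-fold). With chr13:102197578-102198203, these last 2 sites had no peak in any of the 3 other lists. By construction, sites with a large rise were weak and sites with a large fall strong at day 9.

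The PBS podocyte list could be ranked over the same sites. Over the 6026 pairs with 1 PBS podocyte peak, rho was 0.743 between PBS and day 9, 0.722 between PBS and day 14 and 0.824 between the 2 days. Median widths at these sites were 651 bp in PBS podocytes, 702 bp at day 9 and 392 bp at day 14.

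The third question concerned the shape of matched peaks. Day 14 peaks were narrower and lay inside the day 9 peaks with their summits at nearly the same base. Median width was 699 bp at day 9 (quartiles 589 and 845) and 388 bp at day 14 (312 and 477), and the median ratio within pairs was 1.74. The day 9 peak was the wider in 6436 of 6454 pairs (99.7%), and in 97.7% the whole day 14 interval lay within the day 9 interval. Over these pairs width followed strength, with rho of 0.356 at day 9 and 0.649 at day 14. In the full lists, peaks of like caller p-value had closer widths. With −log10 p from 10 to 20, the medians were 374 bp for 9490 day 9 peaks and 344 bp for 2868 day 14 peaks. From 40 to 80 they were 578 bp and 524 bp.

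Summits were 23 bp apart at the median (quartiles 10 and 44). Of the pairs, 79.5% had summits within 50 bp and 98.9% within 200 bp. The distance was smaller at strong sites, with medians of 17 bp in the strongest quintile by day 9 strength and 30 bp in the weakest. There was little direction to it, with the day 14 summit at the lower coordinate in 3285 pairs, at the higher in 3092 and at the same base in 77. The width ratio went the same way, from 1.57 in the strongest quintile to 1.89 in the weakest.

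**Figure D3:**
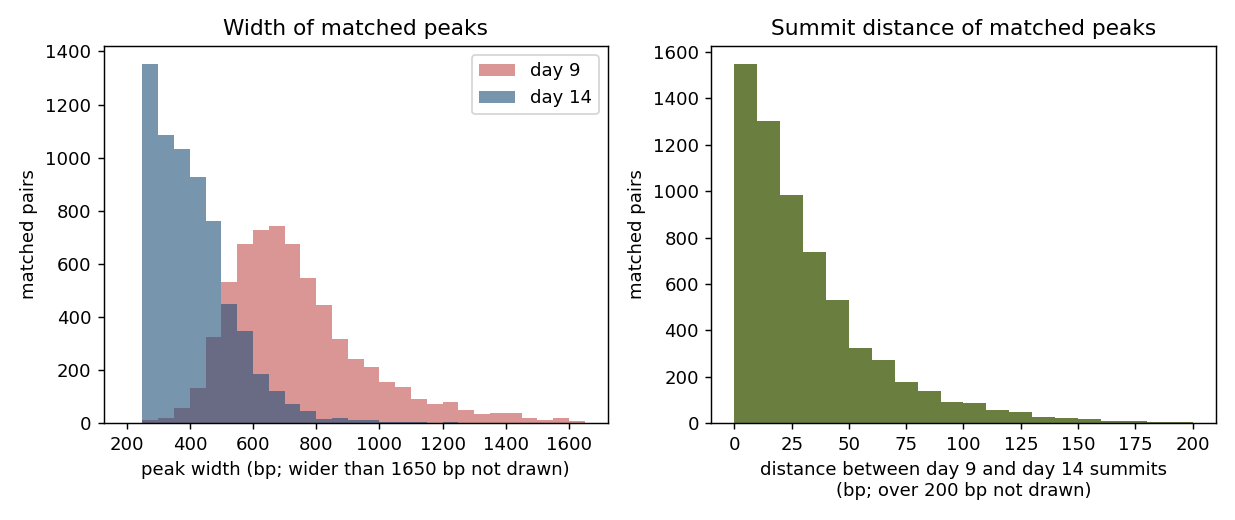
Left, widths of the 6454 matched peaks at day 9 and day 14 (horizontal axis, bp) against the number of pairs; right, distance between their summits (bp) against the number of pairs. Day 14 widths centre on 388 bp and day 9 widths on 699 bp, while most summits lie within 50 bp of each other.

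In 70 pairs the summits were over 200 bp apart. These were wide sites, with a median day 9 width of 1072 bp. At chr5:138069018-138070531 the day 9 summit was at 138070341 and the day 14 summit at 138069309, 1032 bp away. At chr2:164280059-164282079 they were 1029 bp apart, at 164281553 and 164280524, and the PBS podocyte summit was at 164280532. At chr8:47824562-47825745 the PBS podocyte summit (47824895) instead lay by the day 9 summit (47824904) and the day 14 summit was at 47825572. Of the 55 such pairs with 1 PBS podocyte peak, the PBS summit was nearer to the day 14 summit in 24 and nearer to the day 9 summit in 31.

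Wide day 9 peaks could hold several day 14 peaks. The 109 that held more than 1 had a median width of 1441 bp and contained 220 day 14 peaks, with neighbouring summits a median of 633 bp apart. The widest, chr10:127102583-127106665, spanned 4083 bp and held 3 day 14 peaks with summits at 127103732, 127105028 and 127105951 and enrichments of 12.9, 5.17 and 9.10-fold. The day 9 summit, at 127103743, matched the first of these. The peak at chr10:79613666-79616139 also held 3. At chr9:75370771-75371976, 103-fold at day 9, a strong day 14 peak of 37.6-fold stood beside a weak one of 5.25-fold. PBS podocytes had 1 peak at 91 of the 109 sites and more than 1 at 18. In the other direction 1 day 14 peak, chrX:166408398-166409481, spanned 2 day 9 peaks.

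A further question was what else set kept sites apart, in lists that the matching did not use. Kept day 9 peaks far more often had a peak in the other 3 lists. Of all day 9 peaks, 64.0% overlapped a PBS podocyte peak, 67.3% a PBS glomerular peak and 40.5% an ADR glomerular peak. Of all day 14 peaks the shares were 96.1%, 94.2% and 73.0%. Of kept peaks the shares were 96.3%, 94.6% and 73.5%, and of peaks not kept 55.6%, 60.2% and 32.0%. Kept peaks were stronger, so the shares were compared within deciles of day 9 strength. With fold enrichment as strength, kept peaks exceeded the others by 18.4 percentage points for PBS podocytes (17.1 to 19.6), 13.6 for PBS glomeruli (12.3 to 14.9) and 36.7 for ADR glomeruli (34.9 to 38.6).

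The gap was smaller when strength was measured by the caller p-value. Within deciles of caller p-value the differences were 7.41, 2.07 and 4.23 points. In the same decile by fold enrichment, kept peaks had the smaller p-values, with a median −log10 p of 64.0 against 34.7 in the third decile, and were wider (637 against 510 bp). By p-value, 95.4% were kept in the strongest decile and 62.4% in the decile below it. By p-value the difference for PBS podocytes was the largest of the 3. That for ADR glomeruli lay in the strong deciles, with 87.9% of kept and 77.7% of other peaks in the strongest and 36.2% and 38.4% in the fifth.

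**Figure D4:**
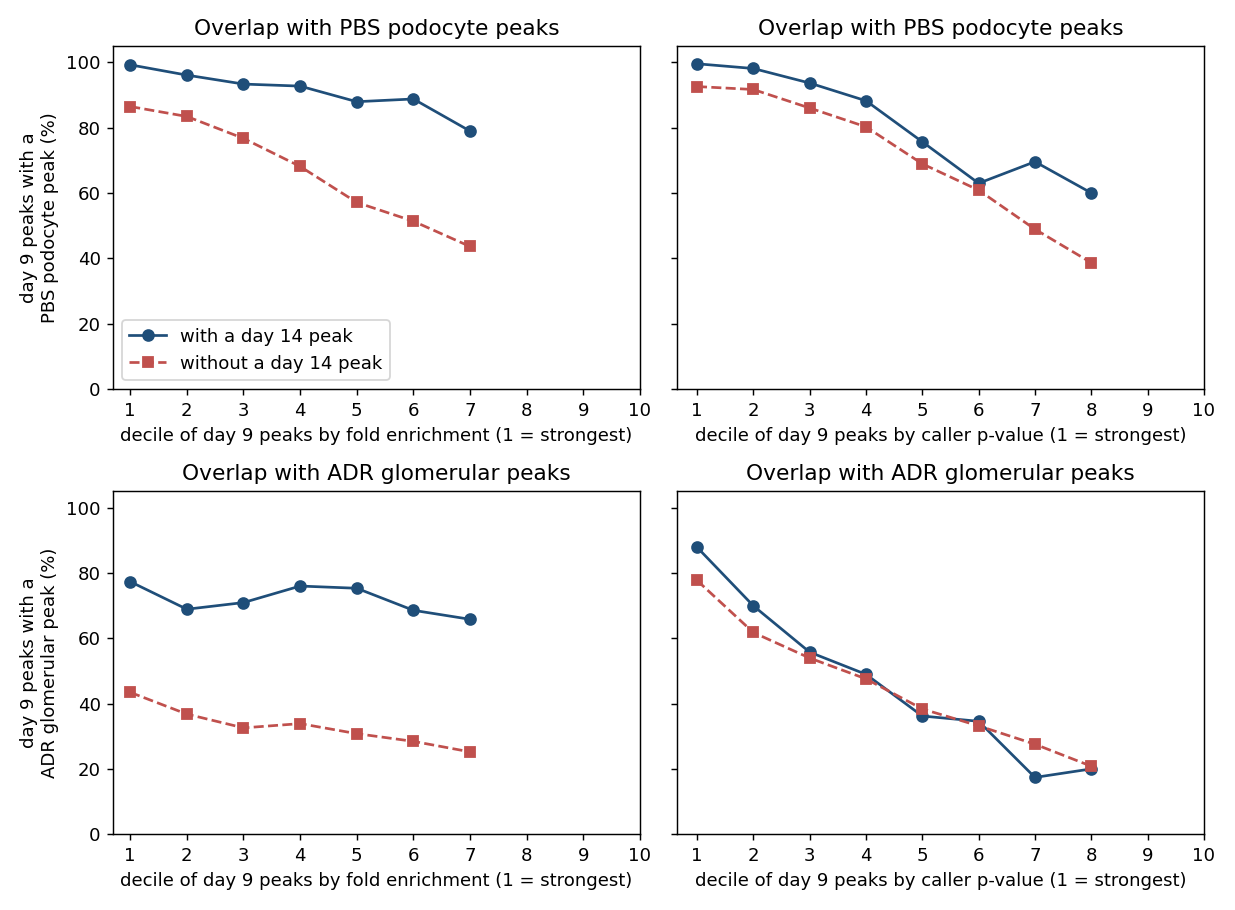
Share of day 9 peaks with a PBS podocyte peak (top) or an ADR glomerular peak (bottom), for peaks with and without a day 14 peak, by decile of day 9 strength measured as fold enrichment (left) or caller p-value (right; 1 is strongest, deciles with under 20 kept peaks not drawn). The ADR glomerular gap of 36.7 points by fold enrichment narrows to 4.23 points by p-value.

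Sites present in every other list were kept most. Of the 10518 day 9 peaks with a peak in all 3, 44.4% were kept (43.5 to 45.4), and their p-values alone predicted 43.4%. Of the 7125 in both PBS lists but not in ADR glomeruli, 20.3% were kept, with 19.9% predicted. In PBS podocytes and ADR glomeruli but not PBS glomeruli there were 424 day 9 peaks, of which 51 were kept (9.27 to 15.5%) where 38.2 were predicted. Of the 2369 in PBS podocytes alone 6.29% were kept, with 6.37% predicted, and of the 830 in ADR glomeruli alone 6.14%, with 7.92% predicted. Of the 1176 in both glomerular lists but not in PBS podocytes, 4.25% were kept (3.24 to 5.56) with 8.18% predicted. Among the 2667 peaks found in PBS glomeruli and in neither of the other 2 lists, 1.65% were kept (1.23 to 2.21) with 3.62% predicted. Of the 6840 peaks in none of the 3 lists, 101 were kept, 1.48% (1.22 to 1.79) with 1.93% predicted. A predicted share gives every peak the kept share of its bin, with day 9 peaks cut into 50 equal bins of p-value.

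Among the one-to-one pairs the shares with a PBS podocyte, PBS glomerular and ADR glomerular peak were 96.2%, 94.6% and 73.2%, and they moved with rank at day 14. In the strongest quintile of pairs by day 9 enrichment, ADR glomeruli had a peak at 93.2% of sites above the median day 14 enrichment of that quintile and at 77.0% of those at or below it. In the weakest quintile the order was the other way, 52.4% above and 90.1% at or below. With p-values in place of enrichment it was not, and the weakest quintile had 52.2% above and 42.9% at or below. PBS podocyte peaks in that quintile turned likewise, from 82.0% above and 98.6% at or below by enrichment to 89.0% and 82.7% by p-value.

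The last question concerned loci where day 9 peaks were dense. Windows of 100 kb on a fixed grid were called dense with 10 or more day 9 summits. These 377 windows held 4684 day 9 peaks (14.7% of the list) and 1106 day 14 peaks (16.5%). At day 14, 25 dense windows had no summit (6.63%, 4.53 to 9.61), 58 had 1 (15.4%), 223 had 2 to 4 and 71 had at least 5 (18.8%, 15.2 to 23.1). The most was 9. Peaks in dense windows were stronger than isolated ones, with median enrichments of 7.44-fold and 6.30-fold, and 23.0% were kept (21.8 to 24.2) against 16.7% (15.6 to 17.9) of peaks alone in their window. Their fold enrichment, cut into 50 bins in the same way, predicted 25.1% and 16.0%. Dense windows thus kept 2.12 percentage points less than their day 9 strength predicted, while isolated peaks kept 0.719 points more. Windows with 2 and with 3 summits kept 1.18 and 1.63 points more. Predicted from p-value, the differences were 1.72 points for isolated peaks, 1.42 and 1.39 for 2 and 3 summits and -2.00 for dense windows.

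**Figure D5:**
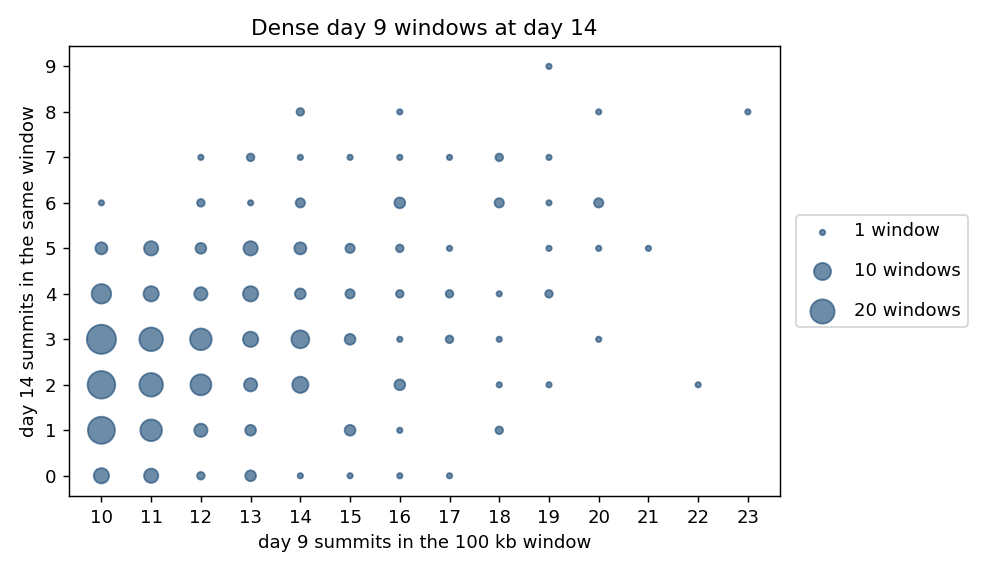
Day 9 summits (horizontal axis) and day 14 summits (vertical axis) in the 377 dense 100 kb windows; the area of a point gives the number of windows. Windows with 16 day 9 summits range from 0 to 8 day 14 summits, and the window with 23 day 9 summits has 8.

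The windows with no day 14 summit differed from the others in their strongest day 9 peak. It had a median of 15.4-fold, against 25.5-fold where 1 was kept, 36.1-fold for 2 to 4 and 45.3-fold for at least 5. The class with at least 5 also had more day 9 summits per window, a median of 14 against 11 in each other class. The classes count day 14 summits, and keeping rose with day 9 strength over the whole list, so this order is not separate from that result. The median peak of a window did not follow that order, with 6.42-fold where none was kept, 6.11-fold for 1, 7.45-fold for 2 to 4 and 9.60-fold for at least 5. Peaks of PBS podocytes numbered 52.9 per 100 day 9 peaks in the first class, 62.2, 67.8 and 72.6 in the others. Where 1 summit stood at day 14, the kept site was the strongest day 9 peak of the window in 43 of 58 windows. In the windows with at least 5, 342 of the 398 kept day 9 peaks (85.9%) were among the strongest of their window, counting as many places as the window had kept peaks. These windows held 1037 day 9 peaks in all. In the windows with 2 to 4 it was 503 of 619 (81.3%). The share that the rise of keeping with strength alone would give was not computed.

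The densest locus that kept none was chr2:167600001-167700000. It had 17 day 9 summits, 9 in PBS podocytes, 16 in PBS glomeruli, 20 in ADR glomeruli and 0 at day 14. From general knowledge of the mm9 map, and not from an annotation used here, this is the interval between Cebpb, which encodes a leucine-zipper transcription factor of stress and inflammatory responses, and Ptpn1, which encodes a tyrosine phosphatase of insulin signalling. The GRCm38 gene table places 0 protein-coding genes between them. The strongest of the 17 day 9 peaks, at chr2:167644612-167645349, had 19.7-fold enrichment and 10 of the 17 lay under 10-fold. Fold enrichment predicted 2.92 kept peaks, and no prediction from p-value was made for single windows. The windows without a day 14 summit, here and below, were picked for that. Each therefore falls short of its prediction by construction. All 17 were without a day 14 peak, while ADR glomeruli had a peak at 15 of the 17 and PBS podocytes at 9.

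Other dense loci kept none with stronger day 9 peaks. At chr9:48500001-48600000, 14 day 9 summits included a peak of 31.8-fold, strength predicted 3.31 kept peaks, and PBS podocytes had 2 summits. At chr5:107600001-107700000, 13 day 9 summits reached 24.9-fold, with 3.50 predicted and 6 PBS podocyte summits. The windows at chr4:149700001-149800000 (16 summits) and chr4:148200001-148300000 (15 summits) had no peak above 11.5-fold and 16.6-fold, and 0.980 and 0.898 kept peaks were predicted.

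The densest loci with 1 day 14 summit differed in the strength of their peaks. At chr10:6500001-6600000, 18 day 9 summits stood against 1 at day 14, that of the strongest, chr10:6589976-6590782, which had 69.0-fold enrichment at day 9 and 17.7-fold at day 14 (95.1st percentile of its list). The next strongest of the 18 had 22.9-fold, and 15 of the 18 were under 12-fold. At chr11:87900001-88000000, 18 day 9 summits also stood against 1. The windows at chr8:46000001-46100000 (16 summits), chr15:25800001-25900000 (15) and chr8:37700001-37800000 (15) had strongest day 9 peaks of 21.2, 26.0 and 18.9-fold. With 15 summits there were 4 windows in this class, and these 2 had the highest strongest peak among them.

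The locus at chr2:60700001-60800000 had 22 day 9 summits against 9 in PBS podocytes and 2 at day 14. From the same general knowledge it lies at Rbms1, which encodes a single-stranded nucleic acid binding protein. The 2 kept sites were chr2:60751172-60751985, 54.4-fold at day 9 and 15.0-fold at day 14, and chr2:60719117-60720057, 23.5-fold and 7.72-fold. The second strongest of its day 9 peaks, chr2:60730921-60731709 at 28.8-fold, was not kept although it had a peak in all 3 other lists. Strength predicted 4.93 kept peaks here. Of the 22 day 9 peaks, 10 had no peak in any of the 3 other lists, and none of these 10 was kept. Over the whole day 9 list, 6840 of 31949 peaks were in none of the 3, and only 1.48% of those were kept. Dense windows at chr13:63300001-63400000 (20 summits) and chr19:25300001-25400000 (19) had 3 and 2 day 14 summits, and both chr3:51800001-51900000 and chr9:63800001-63900000 (19 each) had 4.

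Loci that kept many were led by chr8:34900001-35000000, with 23 day 9 summits, 12 in PBS podocytes and 8 at day 14, as many as the 7.95 predicted. Its strongest site, chr8:34986105-34987222, had 110-fold enrichment at day 9 and 44.6-fold at day 14. The other kept sites had 11.7 to 41.1-fold at day 9. A peak of 21.4-fold, chr8:34925745-34926410, was not kept although it had a peak in all 3 other lists. The window at chr12:70500001-70600000 likewise kept 8 of 20, with 7.96 predicted. The windows at chr18:76200001-76300000 and chr9:108100001-108200000 kept 6 of 20 each, and chr9:118800001-118900000 kept 4 of 21.

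Most day 14 summits stood in chr11:98600001-98700000, with 9 against 19 at day 9 and 20 in PBS podocytes. From general knowledge this window holds Thra and Nr1d1, which encode the thyroid hormone receptor alpha and the circadian repressor REV-ERB alpha, and the neighbouring Msl1 and Casc3. The window was picked for its day 14 summits, so a count above its prediction is favoured by that choice. Fold enrichment predicted 5.31 kept peaks and 8 day 9 peaks there were kept. At day 9 they had 8.52 to 31.5-fold enrichment, percentiles 62.5 to 95.2 of that list. At day 14 they had 3.03 to 8.42-fold, percentiles 1.98 to 71.8. At each of the 8, PBS podocytes, PBS glomeruli and ADR glomeruli had peaks too. The same held for 4673 of all 6565 kept day 9 peaks. For all day 9 peaks with a peak in those 3 lists, fold enrichment predicted 35.7% kept and p-value 43.4%, against 44.4% found. The peaks at chr11:98641576-98642073 (16.9-fold) and chr11:98637996-98638571 (14.8-fold) were not kept, although 4 of the 8 kept sites had lower fold enrichment than both. Those 4 were wider, at 597 to 1151 bp against 498 and 576 bp, and p-values were not compared here.

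The window in which, from general knowledge of the map, the Wt1 gene itself begins was named after its values were seen. At chr2:104900001-105000000, 18 day 9 summits stood against 9 in PBS podocytes and 4 at day 14, with 4.52 predicted. The strongest site, chr2:104937078-104938208, had 51.0-fold enrichment at day 9 and 14.6-fold at day 14. The peaks at chr2:104924081-104924589 (21.0 and 6.69-fold), chr2:104902850-104904077 (23.5 and 5.01-fold) and chr2:104966400-104966889 (19.7 and 5.33-fold) were the others kept. A peak of 19.2-fold, chr2:104909225-104909942, was not kept.

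Only 19 day 14 peaks had no day 9 peak. All were weak for their list, with 2.79 to 5.95-fold enrichment and a highest percentile of 45.0. Their median width was 285 bp. Of these, 7 lay on the X chromosome, which held 153 of all day 14 peaks, and 12 on autosomes. A peak was present in PBS podocytes at 7 of the 19, in PBS glomeruli at 2 and in ADR glomeruli at 3, and 12 had none in any other list. The nearest day 9 peak was within 1 kb for 2 of them and at a median of 57599 bp. The strongest was at chrX:162822866-162823158. On the same chromosome, 4 of the 19 formed a cluster of 23.0 kb, from 47950343 to 47973355, with 4.55 to 5.72-fold enrichment. None of the other 4 lists had a peak within 50 kb of that cluster.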

How the data were processed

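The submitters' processing notes name Bowtie 0.12.7, MACS2 and the mm9 build. Not given in the sources used here were the caller's cutoff and control, its treatment of duplicates and how libraries were combined. Each group has 1 peak list from the authors. The deposited fold enrichment, a ratio of signal over local background, and its −log10 p and −log10 q are the authors' values and ranked or filtered peaks within a list. Coordinates are 1-based, and a summit is the start plus the summit offset.

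Peaks were matched by overlap of at least 1 bp. Predicted shares are means over 50 equal bins of day 9 enrichment or p-value. Predicted counts for single windows used enrichment only. Differences within deciles weighted each decile by its kept and other peaks, with intervals from binomial counting error. The implied background was the value given by most of the 60 strongest peaks of a list (43 at day 9, 36 at day 14), with enrichment taken as pileup plus 1 over background plus 1 and p as a Poisson tail, an assumed form. Named peaks were the 5 most extreme of each kind, and named windows the 5 with most day 9 summits per class, with ties taken by their strongest peak, of which the leading ones are given. The window with most day 14 summits and that of Wt1 were added after their values were seen. The part, its lists and its comparisons were chosen with earlier results of these data known. Occupancy of gene lists, genomic location and motifs need an mm9 annotation or genome and were not run, and no sequences were printed. The overlap code was tested on 31949 and 6694 simulated peaks and missed 0. The simulated peaks stood apart with at most 1 partner each, so close neighbours and several matches to 1 peak were not tried there. Tables were made with pandas 2.3.3, scipy 1.17.1 and numpy 2.4.6 in Python 3.11.15, and plots with matplotlib 3.10.9. The full name of the reporter strain is not reported here.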

Additional observations from a re-analysis of the deposited data

How the results depend on the processing

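Of 46 alternatives over 13 results, 27 moved the value beyond its counting interval or, for counts of windows, by over 1.5 times. A turn of direction could be recorded only for differences from predicted keeping and between kept and other peaks, and none of these turned. The comparison within quintiles of pairs, which did turn with the measure of strength, was not among the 13 results. No paired analysis was possible because the libraries of a day share 1 list, which also left no replicate to leave out. Keeping only peaks with a −log10 q of 10 or more, 19.5% of day 9 peaks had a day 14 peak and 99.9% of day 14 peaks a day 9 peak, rho was 0.848, the width ratio 1.65 and the summit distance 19 bp. With the day 9 list trimmed by p-value the shares were 77.4% and 79.0%, and with summits within 200 bp 97.0% of day 14 peaks matched. With every day 14 peak set against its strongest day 9 peak, rho was 0.803 and the width ratio 1.76, and rho by p-value was 0.801. Dense windows without a day 14 summit numbered 75, 10, 7 and 8 with at least 8 summits, at least 12 summits, the stricter q and runs of summits under 10 kb apart, of 767, 194, 136 and 91 dense loci. Those with 1 numbered 162, 17, 34 and 10 in the same order, and those with at least 5 numbered 84, 58, 18 and 20. As shares of the dense loci, the last class was 10.95%, 29.9%, 13.2% and 22.0%, the windows with none 9.78%, 5.15%, 5.15% and 8.79%, and those with 1 21.1%, 8.76%, 25% and 10.99%. Kept less other peaks within deciles of p-value, and in 50 bins of it (added after the data were seen), gave 7.41 and 7.07 points for PBS podocytes, 4.23 and 2.83 for ADR glomeruli and 2.07 and 1.72 for PBS glomeruli. The depth of each library is not known here, and how depth moved with the weak peaks was not tested.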

Other observations

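Kept shares varied little between chromosomes. Across the 19 autosomes they ran from 18.8% on chromosome 19 to 22.1% on chromosome 14, and the X chromosome had 21.8% (18.8 to 25.1). The share less that predicted from day 9 strength ranged over the autosomes from -1.60 points on chromosome 13 to 1.97 points on chromosome 11. The day 9 list held 25 peaks on the Y chromosome, of 3.19-fold median enrichment, and 0 of them had a day 14 peak (upper Wilson limit 13.3%), where their strength predicted 4.58%. PBS podocytes had 22 there and PBS glomeruli 1.

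The mitochondrial genome carried 6 peaks at day 9, 3 at day 14 and 6 in PBS podocytes, and 0 in both glomerular lists. They were weak, with a day 9 median of 2.88-fold, and 3 of the 6 were kept. Their source was not tested.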
